A study of Mus musculus with 9 samples.

Results

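The immunoglobulin loci of the mouse were followed in 3 layers of the eye, the photoreceptors (PR), the retinal pigment epithelium (RPE) and the choroid (CH), with 285 of the 39429 probes of a dual-colour Agilent microarray. A probe was included when the files place it in the heavy chain region (chr12:114400000-117300000) or the kappa light chain region (chr6:67500000-70700000) of mm9, or when its gene name is that of an immunoglobulin heavy, kappa or lambda gene or of the J chain (Igj). The heavy chain region holds 171 of the probes, the kappa region 109, and 5 came in by name only. By their names and positions, 249 are probes of immunoglobulin genes: 130 for heavy chain variable (V) segments, 99 for kappa V segments, 15 for heavy chain constant regions, 2 for heavy chain genes with no position, 2 for the kappa constant region and 1 for the J chain. The other 36 are 15 probes of neighbouring or similarly named genes and 21 that the files do not identify. Probes of the lambda light chain carry other names in the files, so its 6 probes lie outside the set and serve as a comparison. The set was chosen by position and name, but on the strength of CH minus RPE and CH minus PR differences already seen in these arrays. Differences that involve the CH are therefore given as descriptions, and tests are given for the RPE against the PR. The same RPE and PR arrays entered the differences that led to the choice, so these tests are not independent of it.

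Each tissue was sampled 3 times, with 1 whole eye per sample, from female C57BL/6 mice that the labels give as 6 months old and the methods as J strain. The tissue was cut out by laser dissection, the RPE was removed before the CH was taken, and the RNA was amplified before labelling. All 9 samples carried Cy5, and the Cy3 channel of each array held one and the same reference RNA from mouse RPE and choroid, so a log2 ratio of 0 means the level of the reference. The labels do not say which samples share a mouse or an eye, and the p-values measure the spread between these samples. The arrays lay on 3 slides. PR replicates 1 and 3 were on a slide of their own. CH and RPE replicates 1 and 3 shared another, and the replicate 2 arrays of all tissues shared the last. For PR replicates 1 and 3, tissue and slide therefore cannot be told apart.

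An antibody is built from heavy chains and kappa or lambda light chains. In a B cell, a V segment is joined to short D and J segments and read together with a constant region, so the transcript of a given cell holds its own V segment and the constant region of its antibody class: mu, delta, gamma, epsilon or alpha. Plasma cells, the secreting descendants of B cells, fill their RNA pool with these transcripts, and the J chain links the polymers of IgM and IgA. Most cells of the eye make no antibody. In whole tissue, fewer cells of a type and less RNA per cell cannot be told apart.

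The probes of the constant regions on which the results turn are shown first, read 5′ to 3′ from the files, with a stop codon at the end of a coding sequence in capitals. RefSeq's gene order (Igha, Ighe, Ighg2c, Ighg2b, Ighg1, Ighg3, Ighd, Ighm) was used only for neighbours. The probes A_51_P509679 and A_55_P1960148 lie beyond the epsilon gene, at the place of alpha, 45 bases apart. A_55_P2063283 and A_55_P2021084 lie between the probes of IGHG2C and IGHG1, at the place of gamma 2b. A_55_P2060897 ends in the stop codon of the kappa constant region. The gamma genes resemble each other closely, and how far a probe of one binds transcripts of another was not tested.
Alpha place, A_51_P509679, chr12:114496985-114497044, minus strand: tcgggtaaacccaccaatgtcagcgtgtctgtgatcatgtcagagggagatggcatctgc
Alpha place, A_55_P1960148, chr12:114497090-114497149, minus strand: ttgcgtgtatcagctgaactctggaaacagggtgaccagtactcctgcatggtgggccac
Gamma 2c, IGHG2C, chr12:114525600-114525659, minus strand: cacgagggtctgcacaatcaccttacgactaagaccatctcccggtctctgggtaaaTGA
Gamma 2b place, upstream, A_55_P2063283, chr12:114544738-114544797, minus strand: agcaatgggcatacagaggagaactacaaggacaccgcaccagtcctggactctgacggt
Gamma 2b place, downstream, A_55_P2021084, chr12:114542525-114542584, minus strand: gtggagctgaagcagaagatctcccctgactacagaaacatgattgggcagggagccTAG
Mu, IGHM, chr12:114659630-114659689, minus strand: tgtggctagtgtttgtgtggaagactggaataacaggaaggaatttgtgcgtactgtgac
Kappa constant region, A_55_P2060897, chr6:70676692-70676751, plus strand: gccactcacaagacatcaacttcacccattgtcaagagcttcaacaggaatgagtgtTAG

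The kappa V probes shown next are those at which 1 CH array stood far above all RPE and PR arrays, and they were chosen after their values were seen. The capitals mark a run of 20 bases that the 4 IGKV4 probes share and that 6 probes on the array hold, so these 4 cannot be read as independent segments. The Igk-V32 probes lie 32 bases apart in the same segment.
Igk-V32, A_55_P2132533, chr6:68387766-68387825, plus strand: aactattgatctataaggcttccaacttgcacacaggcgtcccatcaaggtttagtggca
Igk-V32, A_55_P2132532, chr6:68387858-68387917, plus strand: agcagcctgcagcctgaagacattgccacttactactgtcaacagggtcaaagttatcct
IGKV11-125, chr6:67863987-67864046, plus strand: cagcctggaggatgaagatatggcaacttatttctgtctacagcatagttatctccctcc
IGKV2-112, chr6:68170470-68170529, plus strand: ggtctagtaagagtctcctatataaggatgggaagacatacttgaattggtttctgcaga
IGKV4 segment, A_55_P2058023, chr6:69494355-69494414, minus strand: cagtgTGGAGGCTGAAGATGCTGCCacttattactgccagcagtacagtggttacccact
IGKV4-62, chr6:69349806-69349865, minus strand: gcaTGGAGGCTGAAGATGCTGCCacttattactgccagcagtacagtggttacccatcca
IGKV4-73, chr6:69147577-69147636, minus strand: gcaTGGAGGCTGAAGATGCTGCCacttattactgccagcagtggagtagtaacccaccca
IGKV4-80, chr6:68966568-68966627, minus strand: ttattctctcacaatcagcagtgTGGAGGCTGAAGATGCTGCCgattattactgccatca

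RPE replicate 2 stood apart from the other arrays before any comparison. In Cy5, 91.8% of its spots were well above background, against 63.1% to 71.9% on the other 8 arrays, and the median raw Cy5 signal of the immunoglobulin locus probes was 649 there against 130 to 205. Of the 285 probes, 229 were well above background on this array, and 108 were so on this array and no other. Over all 39429 probes of the array design, 5449 were well above background on RPE replicate 2 only. The labelled tissues bore their markers: 8 of 8 rod genes were called higher in PR than RPE, and 7 of 8 fibroblast genes higher in CH than RPE. Of 7 RPE genes, 6 were called higher in RPE than PR, but 6 were also higher in CH than PR. Called higher in RPE than CH were 5 of the 7, and 2 without RPE replicate 2. How much RPE RNA the CH samples held was not tested.

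Few immunoglobulin locus probes were well above background throughout a tissue. Well above background on all 3 arrays were 44 of the 285 probes (15.4%) in the CH, 43 (15.1%) in the RPE and 50 (17.5%) in the PR, while over all probes of the array the shares were 61.7%, 61% and 62.9%. On none of the 9 arrays were 45 of the 285 probes well above background, beside 2495 of all 39429. None of the 285 was saturated on any array. Constant regions were seen more often than V segments: 8 of the 15 heavy chain constant probes were well above background on all CH arrays, against 8 of the 130 heavy chain V probes and 8 of the 99 kappa V probes. The median difference of the 249 immunoglobulin gene probes between the CH and the RPE was -0.03 on the log2 scale, beside -0.04 over all probes. For the RPE minus the PR the medians were 0.03 and -0.01.

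The probes called higher in CH than RPE were constant region probes of switched classes. The call rule was a fold change above 2.5 and a limma adjusted p below 0.01 after Benjamini-Hochberg adjustment over all probes. Against the RPE, 5 of the 285 probes were called higher in the CH, all of heavy chain constant regions, where 1.55% of all probes were called, and nothing is read from that count. By limma 0 were called higher in the RPE, with 11 at an unadjusted p below 0.05, where 0.185% of all probes were called. Every CH array lay above every RPE array for 29 of the probes (10.2%), against 17.9% of all probes, and every RPE array lay above every CH array for 30 (10.5%), against 20.7%.

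The gamma class gave the largest difference. IGHG2C, the constant region of the IgG2c class, had log2 ratios of 2.96, 3.35 and 0.71 in the CH, of -0.31, -0.35 and -0.51 in the RPE and of -0.43, -0.55 and -0.47 in the PR. The lowest CH eye still lay above all 6 other samples, and the RPE and PR values were alike in size. The probe of BC019489, which starts 44 bases past the end of the IGHG2C probe on the transcript, read 3.45, 4.03 and 1.86 in the CH, -0.85, -0.55 and -1.19 in the RPE and -1.26, -1.42 and -1.43 in the PR. The CH mean was 3.11 ± 1.12 (SD, n = 3) and the RPE mean was -0.86 ± 0.32 (SD, n = 3). The fitted CH minus RPE difference was 3.97 for BC019489 (SE 0.44) and 2.73 for IGHG2C (SE 0.54), and on 2 of the 3 RPE arrays both probes were well above background.

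The upstream gamma 2b probe, A_55_P2063283, had log2 ratios of 2.80, 3.86 and 1.67 in the CH, -0.48, -0.12 and -0.88 in the RPE and -1.01, -1.36 and -1.06 in the PR. The order of the eyes was that of both gamma 2c probes, with CH replicate 2 highest and CH replicate 3 lowest. It was well above background on all CH arrays, on 1 RPE array and on no PR array, and its CH signal was at least 12.4-fold higher than in the PR. The fitted difference from the RPE was 3.27 (SE 0.45). The downstream probe under the same transcript record lies 2153 bases further on in the genome and ends in a stop codon. It was well above background on no CH array, and its CH minus RPE difference was -0.11. Whether the upstream and downstream probes read the same forms of the gamma 2b transcript was not tested. Of the other gamma classes, IGHG1 and IGHG3 were well above background on no CH array and differed from the RPE by -0.001 and -0.02. IGHG1 lay between -0.06 and 0.21 over all 9 arrays and IGHG3 between -0.01 and 0.38. A_55_P2066173, a gamma probe between these, was not called in any contrast, and no tissue had it well above background on all arrays.

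The alpha probes A_51_P509679 and A_55_P1960148, at the place of the IgA constant region, showed a graded order of the tissues. Another probe at that place, A_55_P2214124, was in no tissue well above background on all arrays and was called in no contrast. At A_51_P509679 the log2 ratios were 2.87, 2.27 and 2.38 in the CH, 1.45, 1.07 and 0.74 in the RPE and -1.49, -1.66 and -1.23 in the PR. No sample of one tissue overlapped with another tissue. At A_55_P1960148 they were 2.67, 1.77 and 2.37, then 1.43, 0.76 and 0.41, then -1.29, -1.65 and -1.12. The CH minus RPE differences were 1.42 (SE 0.21) and 1.40 (SE 0.29), just past the fold threshold. The kappa constant probe, A_55_P2060897, had the same order of tissues, with 2.51, 2.74 and 1.70 in the CH, 1.17, 0.48 and 1.29 in the RPE and -0.63, -1.65 and -1.23 in the PR. Its CH minus RPE difference of 1.34 (SE 0.33) was not called.

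Mu, the class of unswitched B cells and of IgM, did not follow the gamma and alpha probes. IGHM had log2 ratios of 0.14, 0.11 and -0.38 in the CH and of 0.06, -0.18 and 0.26 in the RPE, and these groups overlapped. In the PR it was at -1.48, -1.70 and -1.58, below every CH and RPE sample. IGHD, the constant region of IgD, was well above background on no CH array and lay between -0.06 and 0.28 over all 9. A_52_P156852, a probe that lies between those of IGHD and IGHM, was well above background on all CH arrays and was called in no contrast. IGHE, of IgE, was well above background on all 9 arrays and lay between -0.002 and 0.54 throughout. The second kappa constant probe, named Igk-C, was well above background on no array, and its log2 ratios lay between -0.12 and 0.14.

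Against the PR, 7 of the probes were called higher in the CH, where 12% of all probes were. They were the 5 above, IGHM and the kappa constant probe. This comparison shares the CH arrays with the last, and its differences were 4.48 for BC019489, 2.82 for IGHG2C, 3.97 and 3.62 for the alpha probes, 3.49 for the kappa constant probe and 1.54 for IGHM. Called higher in the PR than in the CH were 2 probes, Igj and the unidentified A_55_P2051044, where 6.4% of all probes were. Every CH array lay above every PR array for 33 of the 285 probes (11.6%), against 27.9% of all probes, and every PR array lay above every CH array for 56 (19.6%), against 34.3%.

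The comparison of the RPE with the PR takes its differences from no CH array, though its p-values pool the spread of all 3 tissues. Its only arrays on a shared slide were those of replicate 2, so for the rest tissue and slide cannot be told apart. Higher in the RPE were 5 of the 285 probes, where 10.2% of all probes were called, so the share of the set was below that of the array. Every RPE array lay above every PR array for 38 of the probes (13.3%), against 28.7% of all probes, and every PR array lay above every RPE array for 49 (17.2%), against 30%. The 5 called higher in the RPE were the alpha probes A_51_P509679 and A_55_P1960148, IGHM, the kappa constant probe and an unidentified probe, NAP093099-001. The alpha probe A_51_P509679 was 2.55 higher in the RPE on the log2 scale (SE 0.21, limma adjusted p = 4.44e-06) and A_55_P1960148 was 2.22 higher (SE 0.29, limma adjusted p = 0.000114). The kappa constant probe rose by 2.15 (SE 0.33, limma adjusted p = 0.00037) and IGHM by 1.64 (SE 0.16, limma adjusted p = 1.58e-05). In all 4, each of the 3 RPE samples lay above each of the 3 PR samples. Without RPE replicate 2, the array that stood apart, the differences were 2.56, 2.27, 2.40 and 1.75 in the same order, and on the slide that holds samples of all tissues they ranged from 1.52 to 2.74.

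None of the gamma probes was called between the RPE and the PR. BC019489 differed between the RPE and the PR by 0.50 (SE 0.44, limma adjusted p = 0.388), IGHG2C by 0.09 (SE 0.54, limma adjusted p = 0.909) and A_55_P2063283 by 0.65 (SE 0.45, limma adjusted p = 0.263). At BC019489 and A_55_P2063283 every RPE array nevertheless lay above every PR array, as for alpha, while the IGHG2C groups overlapped. With the slide as a block the differences were 1.17 (limma adjusted p = 0.167) for BC019489, 1.59 (limma adjusted p = 0.0363) for A_55_P2063283 and 0.69 (limma adjusted p = 0.57) for IGHG2C. Without CH replicate 3 the differences stayed at 0.50, 0.65 and 0.09, with limma adjusted p of 0.0543, 0.0824 and 0.575. Whether the step of alpha differs from that of gamma was not tested. The fit pools the spread of all 3 tissues, and the CH samples spread most at these gamma probes, so the interval of these differences is wide.

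The J chain, which joins antibody polymers, had its highest level in the PR. Igj had log2 ratios of 2.39, 2.34 and 2.20 in the PR, of 1.21, 0.69 and 0.56 in the CH and of 0.46, -0.15 and -0.14 in the RPE. The PR samples lay above all others with no overlap. Its RPE minus PR difference was -2.26 (SE 0.20, limma adjusted p = 7.9e-06), and it was the only one of the 285 probes called higher in PR than RPE, where 5.22% of all probes were. Without RPE replicate 2 the difference was -2.16, and within the slide shared by all tissues it was -2.49. Its direction was thus opposite to that of the alpha, mu and kappa constant probes in the same contrast.

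No V segment was called in any contrast. None of the 229 V probes reached a fold change of 2.5 in any of the 3 contrasts, and most were not well above background. At an unadjusted p below 0.05 in limma there were 11 higher and 4 lower in CH than RPE, and 14 higher and 24 lower in the RPE than in the PR. With the log ratio of Feature Extraction, IGKV4-73 and IGKV4-62 were called higher in CH than RPE. On that scale these and A_55_P2058028 were also called for CH over PR, A_55_P2124061 and A_55_P2276221 for PR over CH, and A_51_P435671 and A_55_P2124061 for PR over RPE. With Cy5 alone, and with the authors' series table, A_66_P105596 was called for PR over RPE. These probes are named after their values were seen. The CH minus RPE differences of the 229 lay between -0.47 and 0.99 on the log2 scale. Only 16 of them were well above background on all CH arrays, and 13 on all 9 arrays. Of the 16, the largest CH minus RPE differences were those of IGKV3-4 at 0.33, IGKV4-71 at 0.25, A_52_P546162 at 0.12, LOC100048271 at 0.09, LOC100047053 at 0.07 and IGHV1-11 at 0.06, followed by LOC544904 at -0.02 and LOC634049 at -0.04. The smallest were LOC640614 at -0.23, IGHV10-3 at -0.17 and IGKV4-50 at -0.13. IGKV3-4, for example, read 0.69, 0.37 and 0.46 in the CH, 0.38, -0.05 and 0.20 in the RPE and 1.07, 0.89 and 0.98 in the PR. Between the RPE and the PR, 9 V probes had an adjusted p below 0.01 with a difference under 2.5-fold, 8 of them (3.49% of the V probes) higher in the PR, where 19.4% of all probes passed that threshold, and 1 (0.437%) higher in the RPE, where 20.3% did. IGKV3-4 was the largest of these at -0.80 (SE 0.13, limma adjusted p = 0.000527), and 5 of the 9 were well above background on all PR arrays.

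Some kappa V segments were high in 1 CH eye only. Igk-V32 had log2 ratios of 2.64, 0.08 and 0.24 in the CH at A_55_P2132533 and of 2.20, -0.04 and 0.03 at A_55_P2132532, while all RPE and PR values lay between -0.07 and 0.26. CH replicate 1 thus carried this segment at both probes, with raw Cy5 signals of 2150 and 1464. IGKV11-125 read -0.10, 1.94 and 0.01 in the CH and IGKV2-112 read 0.15, 2.12 and 0.20, so both were high in CH replicate 2. In the RPE and PR, IGKV11-125 lay between -0.23 and -0.04, without a value in PR replicate 3, and IGKV2-112 between -0.12 and 0.26. The 4 IGKV4 probes with the shared run were also highest in CH replicate 2, at 1.54 for A_55_P2058023, 1.32 for IGKV4-62, 1.24 for IGKV4-73 and 1.23 for IGKV4-80. CH replicate 3 followed at 0.70, 0.80, 0.84 and 0.45, and CH replicate 1 was lowest at 0.20, 0.45, 0.39 and 0.44. The RPE and PR values of these 4 lay between -0.10 and 0.21.

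At these 8 kappa V probes, a CH array exceeded all RPE and PR arrays by more than 1 on the log2 scale. Of the 130 heavy chain V probes 0 did so, and 3.87% of all probes of the array did, so the count is a description. No V probe had an RPE array, and none a PR array, that stood as far above the other tissues. Against all 8 other arrays, 2 of the 285 probes were higher by more than 1 in CH replicate 1, out of 7 probes on the whole array, and 3 in CH replicate 2, out of 50. Those were Igk-V32 at both probes, then IGKV11-125, IGKV2-112 and the gamma probe A_55_P2063283. None of the 285 stood out in this way on another array.

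Among probes well above background on all CH arrays, the spread between CH eyes was larger for heavy chain constant regions than for V segments. This filter left out the kappa V probes described above that stood high in a CH eye. The low spread of the V probes that passed therefore does not describe V segments in general. Whether constant regions vary more between eyes than V segments as a whole cannot be read from it. Over the 3 CH arrays, the median SD of the log2 ratio was 0.39 for 8 heavy chain constant probes, 0.13 for 16 V probes and 0.16 for the 24344 probes of the array with the same filter. Of the 8 constant probes, 3 had an SD above 0.5, the gamma probes BC019489, IGHG2C and A_55_P2063283, as did 4.3% of the 24344.

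The 6 lambda probes outside the set gave a different order. IGLC3, a lambda constant region, had log2 ratios of 0.67, 1.98 and 1.19 in the CH, 1.85, 0.62 and 2.10 in the RPE and -0.87, -0.92 and -0.91 in the PR. The CH and RPE samples overlapped, with a CH minus RPE difference of -0.24. IGLC2 read 0.44, 1.55 and 0.85 in the CH and 1.13, 0.64 and 1.80 in the RPE, also with a difference of -0.24. By limma, 0 of the 6 were called between the CH and the RPE (1 at an unadjusted p below 0.05), 4 were called higher in CH than PR and 3 higher in RPE than PR. IGLC3 was well above background on no PR array, and its RPE signal was at least 4.72-fold higher there (limma adjusted p = 0.000517). The 3 lambda calls of the RPE over the PR were lost with the slide as a block, at differences of 2.35, 2.44 and 1.47. The first 2 of these values are of IGLC3 probes that overlap by 42 bases, so they cannot be read as independent.

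Some genes of B cells, but not all on the list, had the same order of eyes as IGLC3 and IGLC2. Ms4a1, the B cell surface protein CD20, had log2 ratios of -0.10, 2.06 and 1.45 in the CH and 2.02, 0.24 and 2.67 in the RPE. Cd79b, a signalling chain of the B cell receptor, read 0.76, 1.70 and 1.10, then 1.62, 0.51 and 1.77. Faim3, a receptor for IgM, read 0.19, 1.24 and 0.97, then 1.42, 0.27 and 1.55. In each of these, CH replicate 2 was the highest CH eye and CH replicate 1 the lowest. RPE replicate 3 was their highest RPE eye and RPE replicate 2, the array that stood apart, the lowest. Other B cell genes had another order: Cd72 was highest in CH replicate 1 and RPE replicate 2, and Btk, Blnk and Ebf1 were lowest in CH replicate 3. The gamma probes had CH replicate 3 as their lowest CH eye, and all their RPE values lay below all their CH values.

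The genes that act with antibodies were read from lists of receptors, B cell genes, plasma cell genes, rearrangement factors and homing or survival factors. Of 12 immunoglobulin receptors, 2 were called higher in CH than RPE, namely Fcgr2b, the inhibitory IgG receptor, by 1.81 and Fcer1g, the shared signalling chain of Fc receptors, by 1.57. Against the PR, 8 were higher in the CH and 6 in the RPE, among them Fcgrt, the neonatal Fc receptor, by 2.19 in the RPE (limma adjusted p = 4.78e-06). Pigr, which carries polymeric IgA and IgM across epithelia, differed between the CH and the RPE by 1.27 and was not called. Of 16 B cell genes, Btk and Blnk were called higher in CH than RPE, by 1.64 and 1.49, and 7 of the 16 were higher in RPE than PR. Both Btk and Blnk act in B cell receptor signalling and are also made by myeloid cells.

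Of 15 plasma cell genes, only Slamf7, a surface receptor of plasma cells and other leukocytes, was called higher in CH than RPE, by 1.48. Irf4, a transcription factor of plasma cells, differed by 1.22, Xbp1, the factor of the secretory programme, by 0.32, Prdm1, which encodes Blimp1, by -0.19 and Sdc1, which encodes CD138, by -0.02. Tnfrsf17, the survival receptor BCMA, was well above background on no CH array. In the RPE over the PR, Derl3 and Cd38 were called, by 1.55 and 2.80. Of 8 rearrangement and switching genes, 0 were called by limma in any contrast, and at an unadjusted p below 0.05 there was 1 that was higher in CH than RPE. Against the PR, 2 were higher and 4 lower in the CH at that p, and 1 was higher and 3 lower in the RPE. Of 11 homing and survival genes, Cxcr4, the receptor for Cxcl12, was called higher in CH than RPE by 1.63, and this call was lost without RPE replicate 2. Cxcl12 and Tgfb1 were called higher in RPE than PR, by 4.23 and 2.19, and no gene of the 5 lists was called lower in the CH than in another tissue or lower in the RPE than in the PR.

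Markers of other cells moved with the tissues as well. The summed signal of 9 macrophage genes ranged from 209487 to 249693 in the CH and from 210376 to 227841 in the RPE, and 3 of the 9 were called higher in the CH. For 8 fibroblast genes the ranges were 939300 to 1049960 and 287569 to 392245, with 7 called. Of 4 genes of lacrimal and salivary glands, tissues rich in IgA plasma cells, Car6 was called higher in the CH, by 2.44. The other genes of this list were lower in the CH than in the RPE, Aqp5 by -0.61, Bhlha15 by -0.49 and Prol1 by -0.18, and none of them was called. The summed range of the gland genes was 37603 to 57110 against 10094 to 10805, and the list did not move as a whole. For the 15 plasma cell genes the ranges were 90847 to 113281 and 89775 to 104606, and for the 16 B cell genes 47720 to 55700 and 20914 to 33548. Of 10 T cell genes, 6 red blood cell genes, 8 endothelial genes and 7 skeletal muscle genes, 0 were called higher in CH than RPE by limma, with 2, 0, 1 and 0 at an unadjusted p below 0.05, and of 6 pigment cell genes 4 were. In the RPE over the PR, where alpha, mu and kappa were called, 7 of 8 endothelial, 7 of 8 fibroblast, 5 of 9 macrophage and 6 of 6 pigment cell genes were called higher as well, with median differences of 3.15, 3.50, 1.96 and 2.83 on the log2 scale. The summed endothelial signal ranged from 165418 to 196599 in the RPE and from 16549 to 21549 in the PR, and that of the fibroblast genes from 287569 to 392245 and from 47534 to 61765. For macrophages the ranges were 210376 to 227841 and 64811 to 105137, and for pigment cells 736640 to 892928 and 147565 to 172882. Of the T cell genes 3 of 10 were called for RPE over PR, and 1 each of the red blood cell, skeletal muscle and gland genes. No gene of these lists was called lower. The part of these cells in the constant region differences was not tested. Arrays were spread over 3 slides: within the slide of CH replicates 1 and 3 and RPE replicates 1 and 3, the CH minus RPE difference was 3.67 for BC019489 and 1.53 for A_51_P509679, and within the slide of replicate 2 it was 4.58 and 1.20.

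The remaining probes in the regions were of other genes or unidentified. Zfp386, a zinc finger gene at the end of the heavy chain region, had 3 named probes that differed between the RPE and the PR by -0.54 to -0.91. Ighmbp2, a helicase named for the mu switch region but lying elsewhere, differed by -0.95 and -0.92, and 4930427A07Rik by -0.90 and -0.68. Tmem121, a membrane protein gene next to the heavy chain constant regions, had CH minus RPE differences of 0.61 and 0.67. The unidentified NAP093099-001 read 0.92, 1.39 and 1.04 in the RPE, 0.45, 0.36 and 0.41 in the CH and -0.54, -0.11 and -0.41 in the PR, and its RPE minus PR difference was 1.47 (SE 0.14, limma adjusted p = 1.54e-05). This call was lost with Cy5 alone and with the authors' series table.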

How the data were processed

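The authors deposited the Agilent Feature Extraction output (version 9.5.3.1) of 9 dual-colour arrays, 3 each of CH, RPE and PR. The intensity values in the deposited files are mean signals and local backgrounds of each spot, which the authors had scanned and extracted without further normalization, and all fits began from them. A log10 ratio of processed Cy5 over Cy3, also deposited, and the authors' series table of log2 Cy5 values were used only as alternatives. The scale of that table follows the log2 Cy5 signal, with medians of 9.38 to 9.55 and correlations of 0.985 to 0.999 with the same array, and its centring steps are not given in the sources used here. Group means of log2(Cy5/Cy3) were fitted over all 9 arrays with limma 3.58.1 in R 4.3.3 after normexp (offset 50) and loess within arrays. Controls and the 228 to 586 spots per array that carried an outlier mark were left out, spots of a probe were averaged, and p-values were adjusted by the Benjamini-Hochberg method over 39429 probes. A bound written as at least so many fold comes from the Cy5 signal after loess and Aquantile normalization, set against the dimmest probes well above background, and dye bias could affect it, since every tissue sample carried the same dye. The number of arrays limits the precision. Summed signals of marker lists are of the same Cy5 signal. For genes with several probes in the lists, the brightest probe was used.

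Positions are those of the files, on mm9. No set of probes had a threshold on values, and the members and gene lists were chosen with earlier results of these data known. The probes chosen to be named are those of constant regions, the J chain and other genes that were well above background on all arrays of a tissue, and, among V probes with that filter in the CH, the 8 with the largest and the 3 with the smallest CH minus RPE difference. The 8 kappa V probes shown by sequence, IGHG1, IGHG3, IGHD, Igk-C, A_55_P2021084, A_55_P2214124, A_55_P2066173 and the unidentified probes were named in addition. The calculations were tested on simulated data. The paper gives a younger age of the mice than the labels.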

Additional observations from a re-analysis of the deposited data

How the results depend on the processing

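The 5 probes called higher in RPE than PR were 4 or 5 under all alternatives, and the 7 called higher in CH than PR were 6 to 10. The 5 called higher in CH than RPE became 1 with Cy5 alone (quantile normalized), 2 with the authors' series table and 3 with only the arrays of these tissues. With an array left out they were 2 to 5: 2 without CH replicate 1 or RPE replicate 3, and 3 without RPE replicate 2, PR replicate 1 or PR replicate 3. BC019489 was called in each of these settings and IGHG2C and A_55_P1960148 were those lost most often. The 1 probe higher in PR than RPE, Igj, was joined by others: the count was 2 with median centring and with the slide as a block, 3 at thresholds of 2-fold and 0.05, 4 with the series table, 5 with Cy5 alone and 6 with the Feature Extraction log ratio, and 1 to 2 with an array left out (2 without PR replicate 2). Over all probes, the 611 called higher in CH than RPE ranged from 381 (series table) to 1411 (looser thresholds), with 1169 under median centring, and the 2057 higher in PR than RPE rose to 3573 (Feature Extraction) and 3522 (looser thresholds). The median CH minus RPE difference of the immunoglobulin gene probes was -0.03, and -0.19 with median centring, -0.068 with Feature Extraction and 0.0692 with probes at a limit left out. The median RPE minus PR difference was 0.03, and 0.11 with median centring, -0.0739 with the filter on background and -0.0852 with probes at a limit left out. Without RPE replicate 2, an alternative chosen after seeing the data, the homing and survival genes called higher in CH than RPE went from 1 to 0, the receptors called higher in RPE than PR from 6 to 5 and the plasma cell genes from 2 to 3. The replicate numbers were not taken as pairs: the labels tie no number to an eye, and the deviations of same-numbered samples correlated between -0.08 and 0.29. The 3 pairs of replicate 2, whose arrays share a slide, correlated between 0.16 and 0.29. CH with RPE, which also share a slide in replicates 1 and 3, correlated at -0.07 in replicate 1 and -0.04 in replicate 3. RPE with PR in replicate 3, on different slides, correlated at 0.29. With the replicate block the counts stayed at 5, 7, 5 and 1. Where a count moved, the cause was not tested.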

Other observations

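The run of bases shared by the IGKV4 probes is also held by the probes of LOC100047316 and IGKV4-79. LOC100047316 had log2 ratios of 0.92, 0.80 and 0.40 in the CH, with the RPE between -0.05 and 0.22, and IGKV4-79 had 0.31, 0.18 and 0.44, with the RPE between -0.02 and 0.06. Both had all CH arrays above all RPE arrays, and their order of the CH eyes differed from that of the 4 other probes. Both were well above background on no CH array.

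Fcrla, an Fc receptor-like protein of B cells, had log2 ratios of 1.06, 1.53 and 0.94 in the CH and 1.09, -0.32 and 1.24 in the RPE. As for Ms4a1, Cd79b and the lambda constant regions, RPE replicate 3 was the highest RPE eye and RPE replicate 2 the lowest. IGLV1, a lambda V segment, read 1.20, 0.87 and 1.31 in the CH and 0.59, 0.09 and 0.52 in the RPE, so that all CH eyes lay above all RPE eyes, unlike IGLC3 and IGLC2. IGLC1, another lambda constant region, read 0.86, 0.96 and 1.83 in the CH and 0.84, 0.45 and 0.97 in the RPE.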
